A study of Mus musculus with 8 samples.

Results

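The 10 genes for transcription factors that steer blood progenitors into the granulocyte and monocyte lineages were followed through 8 RNA sequencing libraries of mouse haematopoietic stem and progenitor cells (HSPCs). These genes were taken by symbol from the deposited gene table: Spi1, Cebpa, Cebpb, Cebpd, Cebpe, Gfi1, Irf8, Klf4, Myb and Runx1. All 10 were among its 24421 listed genes, and all 10 were among the 12744 that passed the filter on low counts. The cells came from mice given a primary transplant. Going by the title of the series, the double knockout (dKO) is of beta-catenin and Hoxa9. Each group had 2 libraries. WTEV was wild-type HSPCs carrying an empty vector, dKOEV was dKO HSPCs carrying the same empty vector, dKOMut was dKO HSPCs carrying PRMT1 without enzymatic activity, and dKOPRMT was dKO HSPCs carrying wild-type PRMT1. WTEV is called wild type by its genotype label, although the cell type label of all 8 libraries reads dKO. Every group was transduced, and 3 of the 4 groups carry the dKO label. The Cre driver, deleted exons, vector promoter and ages of the mice are not stated in the labels.

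In normal myelopoiesis these factors act in layers. MYB and RUNX1 work in stem and progenitor cells, PU.1 (the product of Spi1) and C/EBP alpha open the myeloid programme, and C/EBP epsilon and GFI1 carry granulocyte maturation. IRF8 and KLF4 carry monocyte and dendritic cell development, and C/EBP beta and delta act in emergency and late stages. GFI1 is a transcriptional repressor whose known targets include monocyte genes, so the balance between GFI1 and IRF8 is a textbook marker of the granulocyte against the monocyte choice. PRMT1 places asymmetric dimethyl marks on arginine residues of histones and other proteins, among them RUNX1.

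Library totals ran from 15531344 to 22329749 counts, and each of the 10 genes had at least 911 counts in every library. Prmt1 stood at 188 to 194 CPM (counts scaled to a common library size after TMM normalization) in WTEV and dKOEV, at 1744 and 1758 CPM in dKOMut and at 981 and 976 CPM in dKOPRMT. Hoxa9 was at 17.2 and 18.2 CPM in WTEV and at 1.87 to 5.79 CPM in the 6 dKO libraries, and Ctnnb1, the beta-catenin gene, at 444 and 455 CPM against 360 to 391 CPM. The Ctnnb1 counts thus do not by themselves show the loss that the dKO label names, and with the deleted exons unknown a count over the whole gene is no check of it. The genotype label of dKOMut replicate 2 names PRMT2, and this library was placed in dKOMut by its title. Xist had counts only in the WTEV libraries (121 and 159 CPM) and the Y-linked Ddx3y only in the 6 dKO libraries (58.2 to 68.5 CPM), so genotype and sex of the source animals cannot be told apart in any comparison with WTEV. All 10 genes lie on autosomes. Whether the 2 libraries of a group were made from different mice is not stated in the labels. The p-values thus cover the spread among these libraries, which may be technical. In bulk RNA, fewer cells of a type and less RNA per cell cannot be told apart.

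All 10 factors were well expressed, and their order of abundance differed between the groups. Levels of different genes are compared here per kilobase of the deposited gene length (RPKM). In WTEV the order was Spi1 (240 RPKM), Cebpb (124), Cebpa (93.2), Myb (80.6), Cebpe (53.0), Irf8 (40.5), Cebpd (22), Runx1 (21.1), Gfi1 (21.1) and Klf4 (17.6). Runx1 and Gfi1 overlapped between libraries there, and the other neighbours did not. Spi1 led in all 4 groups, at 277 to 289 RPKM in the dKO groups. Cebpe moved from the fifth place in WTEV to the third in dKOPRMT, where its 109 RPKM overlapped the range of Cebpa. Gfi1 moved from the ninth place to the sixth, and Runx1 from the eighth in WTEV to the last in all 3 dKO groups. Over the 8 libraries the highest level exceeded the lowest by 2.14-fold for Gfi1, 2.08-fold for Cebpe and 1.90-fold for Cebpd, but only by 1.10-fold for Runx1.

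**Figure D1:**
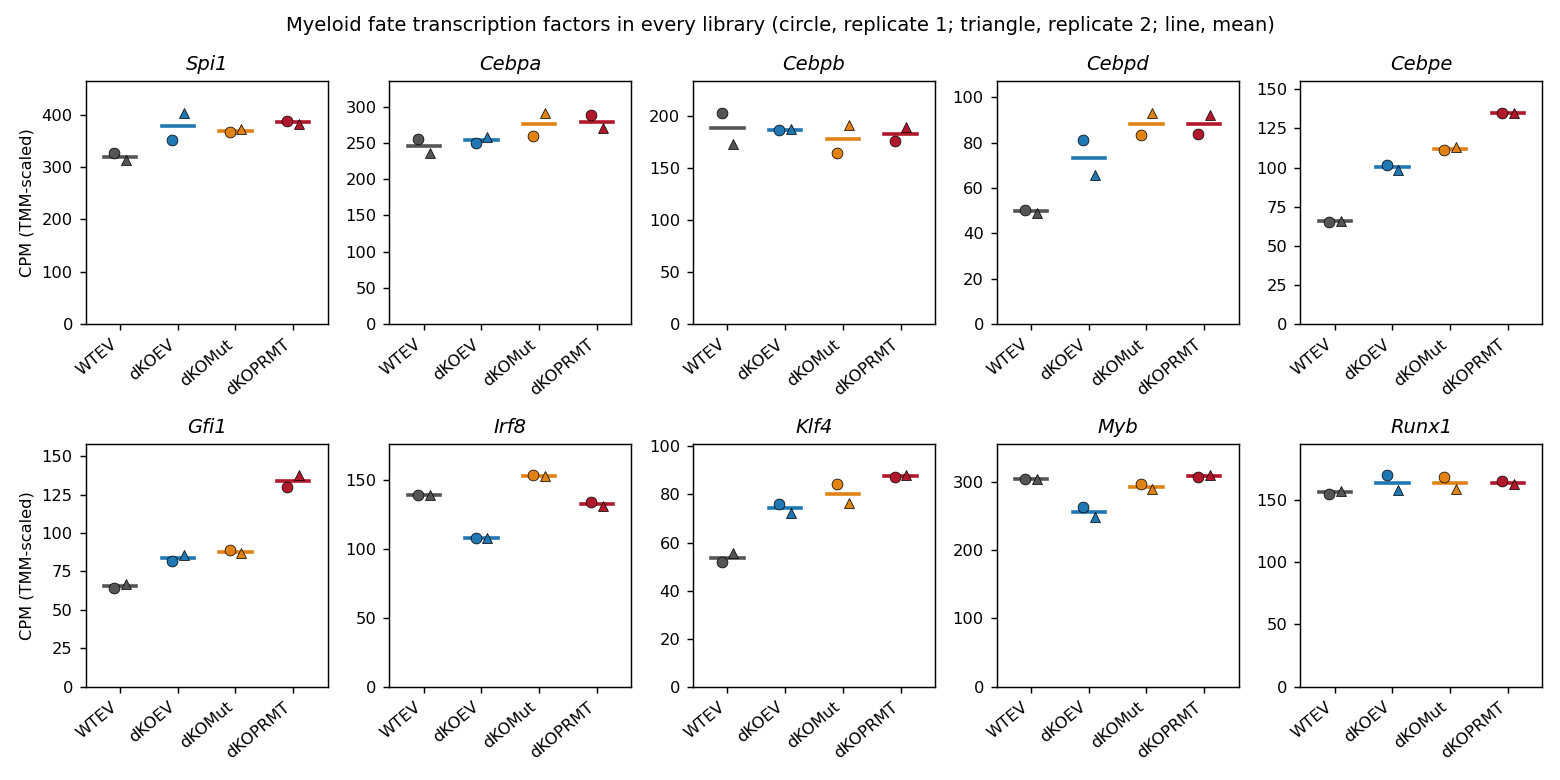
Level of each of the 10 transcription factor genes in CPM (vertical axes, from 0) in the 4 groups (horizontal axes). Each point is 1 library and each line is the mean of a group. Gfi1 stands at 130 and 138 CPM in dKOPRMT against 64.3 to 89.0 CPM in the other 6 libraries, and Irf8 is lowest in dKOEV at 108 CPM.

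The progenitor factors differed from each other: Myb fell in the double knockout and was higher with either PRMT1 insert, while Runx1 did not pass the threshold in any comparison. Myb (chromosome 10, 21124930 to 21160984, minus strand, GRCm38) encodes a factor that maintains proliferating progenitors. It was at 304 and 304 CPM in WTEV, 264 and 248 in dKOEV, 297 and 289 in dKOMut, and 308 and 310 in dKOPRMT. The dKOEV libraries were the lowest of the 8, with no overlap with any other group. Over all tested genes the libraries of dKOEV and WTEV did not overlap for 52.8%, those of dKOMut and dKOEV for 48.2% and those of dKOPRMT and dKOEV for 52.2%. The difference between dKOEV and WTEV was -0.25 ± 0.04 (log2 fold change ± standard error, here and below; adjusted p = 6.61e-05, quasi-likelihood test of edgeR, Benjamini-Hochberg adjustment over all tested genes). Against dKOEV, Myb rose by 0.20 ± 0.04 in dKOMut (adjusted p = 0.00177) and by 0.27 ± 0.04 in dKOPRMT (adjusted p = 1.58e-05). These comparisons share the dKOEV libraries. Between dKOPRMT and dKOMut the difference of 0.08 ± 0.04 missed the threshold (adjusted p = 0.492), as did the differences of both insert groups from WTEV (0.02 ± 0.04 and -0.05 ± 0.04).

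Runx1 (chromosome 16, 92601466 to 92826074, minus strand) encodes the DNA-binding subunit of core binding factor. It was at 155 and 157 CPM in WTEV, 170 and 158 in dKOEV, 168 and 159 in dKOMut, and 165 and 163 in dKOPRMT. The dKO groups overlapped one another, and all 6 dKO libraries lay just above WTEV. Its 6 differences lay between 0.00 and 0.07, each with a standard error of 0.05. A count summed over Runx1 leaves transcripts from its separate start sites mixed.

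Among the factors that open the myeloid programme, Spi1 rose modestly in the double knockout and Cebpa was higher only in the insert groups against WTEV. Spi1 (chromosome 2, 91096797 to 91115756, plus strand), the ETS-family factor PU.1, was at 326 and 313 CPM in WTEV and at 351 and 404 CPM in dKOEV. It was at 367 and 372 CPM in dKOMut and at 389 and 383 CPM in dKOPRMT. All 6 dKO libraries lay above both WTEV libraries, while the dKOEV pair spanned the other dKO libraries. The dKOEV rise was 0.24 ± 0.05 (adjusted p = 2.63e-04). It was 0.13 and missed the threshold without dKOEV replicate 2 (adjusted p = 0.0631). The insert groups rose against WTEV as well, by 0.21 ± 0.05 in dKOMut (adjusted p = 0.00104) and 0.27 ± 0.05 in dKOPRMT (adjusted p = 2.69e-05). Among the dKO groups the differences of Spi1 were -0.03 to 0.06 and missed the threshold.

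Cebpa (chromosome 7, 35119293 to 35121931, plus strand), which is required for the step to granulocyte and monocyte progenitors, was at 255 and 237 CPM in WTEV and 250 and 258 CPM in dKOEV. These groups overlapped. The levels were 260 and 292 CPM in dKOMut and 289 and 271 CPM in dKOPRMT, above all 4 empty-vector libraries. Against dKOEV neither insert passed the threshold (0.12 ± 0.05, adjusted p = 0.147, and 0.14 ± 0.05, adjusted p = 0.0657). Against WTEV Cebpa rose by 0.16 ± 0.05 in dKOMut (adjusted p = 0.019) and 0.19 ± 0.05 in dKOPRMT (adjusted p = 0.00639). Both of these calls rested on single libraries: without WTEV replicate 2 the adjusted p was 0.289 and 0.158, without dKOMut replicate 2 the first was 0.435, and without dKOPRMT replicate 1 the second was 0.184. Leaving out dKOMut replicate 1 gave a rise in dKOMut over dKOEV (0.20, adjusted p = 0.0223), and leaving out either dKOMut library brought the dKOPRMT difference from dKOEV past the threshold (adjusted p = 0.0426 and 0.0474).

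Within the C/EBP family the members went apart: Cebpe and Cebpd rose and Cebpb did not. Cebpb (chromosome 2, 167688915 to 167690432, plus strand), the factor of emergency granulopoiesis and macrophage activation, ran from 164 to 203 CPM, and every group overlapped every other. Its 6 differences lay between -0.09 and 0.04, with standard errors of 0.07, and none passed the threshold. The WTEV pair alone was at 203 and 173 CPM.

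Cebpd (chromosome 16, 15887286 to 15889545, plus strand), an acute-phase and late myeloid factor, was at 50.3 and 49.1 CPM in WTEV. It was at 81.3 and 65.5 CPM in dKOEV, 83.5 and 93.2 in dKOMut, and 83.8 and 92.3 in dKOPRMT. Every dKO library stood above both WTEV libraries. The dKOEV rise was 0.56 ± 0.09, a 1.47-fold change (adjusted p = 1.08e-05). Against dKOEV, Cebpd rose by 0.27 ± 0.08 in dKOMut (adjusted p = 0.0287) and by 0.27 ± 0.08 in dKOPRMT (adjusted p = 0.0255). The dKOEV pair was the widest of this gene. Without dKOEV replicate 2 the insert differences were 0.12 and 0.12 (adjusted p = 0.412 and 0.42). They also missed the threshold without dKOMut replicate 2 and without dKOPRMT replicate 2, respectively (adjusted p = 0.293 and 0.321). The difference between the inserts was within 0.01 of 0, with a standard error of 0.08 (adjusted p = 0.993). The last 321 bases of Cebpd overlap Spidr on the other strand, which had 576 to 872 counts, and the strand setting of the counting is not given in the sources used here.

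Cebpe (chromosome 14, 54710363 to 54712174, minus strand), the factor of secondary granule formation, rose in the double knockout and again with wild-type PRMT1. Its level was 65.1 and 66.1 CPM in WTEV, 101 and 98.7 in dKOEV, 111 and 113 in dKOMut, and 135 and 135 in dKOPRMT. No 2 groups overlapped, and beside the shares above, all tested genes were free of overlap in 44.1% for dKOPRMT and dKOMut, 62.6% for dKOPRMT and WTEV and 57.9% for dKOMut and WTEV. The dKOEV rise over WTEV was 0.61 ± 0.06, or 1.52-fold (adjusted p = 4.93e-09). From dKOEV to dKOPRMT it rose by a further 0.43 ± 0.06 (adjusted p = 1.79e-06), while the difference of 0.16 ± 0.06 in dKOMut missed the threshold (adjusted p = 0.0874). Cebpe was higher in dKOPRMT than in dKOMut by 0.27 ± 0.06 (adjusted p = 0.00701). That call was lost without dKOMut replicate 1 (adjusted p = 0.088), dKOPRMT replicate 1 (0.125) or dKOPRMT replicate 2 (0.087), with a difference of 0.25 to 0.27. From WTEV to dKOPRMT the rise was 1.04 ± 0.06, a 2.06-fold change.

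Gfi1 encodes a repressor that carries granulocyte maturation, and Irf8 a factor of monocyte and dendritic cell development. These 2 genes differed between dKOPRMT and dKOMut in opposite directions. Gfi1 (chromosome 5, 107716655 to 107725805, minus strand) was at 64.3 and 66.7 CPM in WTEV, 81.8 and 85.7 in dKOEV, 89.0 and 86.9 in dKOMut, and 130 and 138 in dKOPRMT. The dKOPRMT libraries stood far above the other 6, and the dKOMut libraries just above dKOEV. It rose by 0.36 ± 0.07 from WTEV to dKOEV (adjusted p = 2.11e-04). Against dKOEV, Gfi1 rose by 0.67 ± 0.07 in dKOPRMT, or 1.59-fold (adjusted p = 6.36e-10), and by 0.07 ± 0.07 in dKOMut, which missed the threshold (adjusted p = 0.587). The direct comparison of dKOPRMT with dKOMut gave 0.60 ± 0.07 (adjusted p = 4.71e-08), the 23rd smallest p of 12744 genes. That difference kept its call in all 13 alternative settings, at 0.56 to 0.64. Prmt1 counts were lower in dKOPRMT than in dKOMut, as given above.

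Irf8 (chromosome 8, 120736358 to 120756692, plus strand) was at 139 and 139 CPM in WTEV, 108 and 108 in dKOEV, 153 and 153 in dKOMut, and 134 and 131 in dKOPRMT. The replicates of a group differed by at most 1.84% of their mean, and no 2 groups overlapped. Irf8 fell by 0.36 ± 0.06 on the log2 scale from WTEV to dKOEV (adjusted p = 8.81e-06). Against dKOEV it rose by 0.50 ± 0.06 in dKOMut, or 1.42-fold (adjusted p = 1.33e-08), and by 0.29 ± 0.06 in dKOPRMT (adjusted p = 1.97e-04). Irf8 was lower in dKOPRMT than in dKOMut by -0.21 ± 0.06 (adjusted p = 0.0248). This call was lost when any 1 of the 4 libraries compared was left out, with a difference of -0.22 to -0.20 and an adjusted p of 0.121 to 0.245. In the order of its levels, dKOPRMT and WTEV did not differ past the threshold (adjusted p = 0.425), nor did WTEV and dKOMut (0.0759). The second of these passed without either dKOEV library (adjusted p = 0.0494 and 0.0493).

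The reference sequence around the start sites of this pair is shown because they went opposite ways between dKOPRMT and dKOMut and because GFI1 is known to repress monocyte genes. Against dKOEV both rose in dKOPRMT, Gfi1 by 0.67 ± 0.07 and Irf8 by 0.29 ± 0.06. Over the 8 libraries their log2 levels had a Pearson correlation of -0.03. Of the 10 factors, 7 (Cebpa, Cebpb, Gfi1, Irf8, Klf4, Myb and Runx1) matched a RefSeq promoter entry of GRCm38.p6, which holds 250 bases before and 50 after a start site. Both strands were searched for AAATCA (the core of the GFI1 motif), TTCNNNGAA (STAT), TTGCNNAA (C/EBP), GAGGAAG (PU.1), TGTGGT (RUNX1) and the IRF response element, and capitals mark every match. Gfi1 lies on the minus strand at chr5:107725756-107726055 and Irf8 on the plus strand at chr8:120736108-120736407.
Gfi1: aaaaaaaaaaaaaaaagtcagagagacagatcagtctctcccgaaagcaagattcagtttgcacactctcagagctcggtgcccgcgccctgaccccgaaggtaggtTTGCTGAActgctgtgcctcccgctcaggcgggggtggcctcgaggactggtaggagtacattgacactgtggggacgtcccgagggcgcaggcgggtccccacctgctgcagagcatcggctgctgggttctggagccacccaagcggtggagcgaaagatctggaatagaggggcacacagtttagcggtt
Irf8: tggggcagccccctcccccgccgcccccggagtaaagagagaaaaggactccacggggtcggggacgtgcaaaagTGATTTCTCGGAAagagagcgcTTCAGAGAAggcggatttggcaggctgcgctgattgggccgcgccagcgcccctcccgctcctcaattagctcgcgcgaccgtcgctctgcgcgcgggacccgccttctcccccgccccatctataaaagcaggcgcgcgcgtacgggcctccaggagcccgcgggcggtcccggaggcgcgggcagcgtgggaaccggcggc

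The Gfi1 window held 1 match, TTGCTGAA of the C/EBP pattern, at position -143 from the start site. The Irf8 window held AAATCA on its minus strand at -175, running into TTCTCGGAA of the STAT pattern at -171, and a second STAT match, TTCAGAGAA, at -153. A downstream Irf8 start also held AAATCA, at -226. Of 32851 promoter windows of this length, 14.0% held AAATCA, 8.30% the STAT pattern, 10.8% the C/EBP pattern, 13.6% the PU.1 pattern, 16.8% the RUNX1 pattern and 3.44% the IRF pattern. The upstream Runx1 start held TGTGGT on its minus strand at positions 29 and 37, and the windows of Cebpa, Cebpb, Klf4 and Myb, the downstream Gfi1 start and the downstream Runx1 start held none of the 6 patterns. These matches describe letters in the reference and are not measured binding.

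Klf4 (chromosome 4, 55527137 to 55532475, minus strand), a zinc finger factor of monocyte differentiation, followed Cebpe more closely than it followed Irf8. It was at 51.9 and 55.5 CPM in WTEV, 76.2 and 72.5 in dKOEV, 84.2 and 76.5 in dKOMut, and 87.2 and 87.9 in dKOPRMT. Every dKO library was above both WTEV libraries. Klf4 rose by 0.47 ± 0.08 from WTEV to dKOEV (adjusted p = 2.03e-05) and by 0.24 ± 0.07 from dKOEV to dKOPRMT (adjusted p = 0.026). The latter missed the threshold without dKOEV replicate 2 (adjusted p = 0.126), dKOPRMT replicate 1 (0.117) or dKOPRMT replicate 2 (0.157). The difference of 0.11 ± 0.07 between dKOMut and dKOEV did not pass (adjusted p = 0.378), nor did that of 0.12 ± 0.07 between dKOPRMT and dKOMut (0.51). Across the 8 libraries the log2 levels of Klf4 and Cebpe had a Pearson correlation of 0.98 and those of Klf4 and Irf8 of -0.05, given as a description over libraries that fall into 4 groups.

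Counted together, 7 of the 10 factors passed the threshold between dKOEV and WTEV. Cebpd, Cebpe, Gfi1, Klf4 and Spi1 rose, and Irf8 and Myb fell. Of all tested genes 15.4% were called in this comparison, 8.44% higher and 7% lower, and of the 2876 tested genes within the factors' range of mean level 24.2% were called. In dKOMut against dKOEV, 3 of 10 rose (Cebpd, Irf8, Myb), where 11.3% of all genes and 18.3% of those in the level range were called and 4.24% of all genes were called higher and 7.08% lower. In dKOPRMT against dKOEV, 6 of 10 rose (Cebpd, Cebpe, Gfi1, Irf8, Klf4, Myb), with 14.6% of all genes and 23.2% of those in the level range called and 5.96% of all genes higher and 8.67% lower. None of the 10 was called lower against dKOEV in either insert group. The number that rose with wild-type PRMT1 was 4 without dKOEV replicate 2 or dKOPRMT replicate 2. Between dKOPRMT and dKOMut, 3 of 10 were called (Cebpe and Gfi1 higher, Irf8 lower), against 3.11% of all genes, 1.43% higher and 1.68% lower, and 5.74% in the level range. Without dKOMut replicate 1 or either dKOPRMT library Gfi1 was the 1 factor called in that comparison.

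The sizes of these changes were moderate. The median log2 difference of the 10 factors was 0.15 in dKOEV against WTEV, 0.12 in dKOMut against dKOEV, 0.25 in dKOPRMT against dKOEV and 0.05 in dKOPRMT against dKOMut, where the median over all tested genes was within 0.01 of 0. The median absolute difference was 0.30, 0.12, 0.25 and 0.07 for the factors, against 0.15, 0.14, 0.15 and 0.11 for all tested genes. Measured against WTEV, 6 of 10 rose in dKOPRMT and the same number in dKOMut, namely Spi1, Cebpa, Cebpd, Cebpe, Gfi1 and Klf4 in both, where 23.2% and 19.4% of all genes and 37.2% and 32.2% of those in the level range were called, with 11% and 9.41% of all genes called higher and 12.2% and 9.96% lower. These pairs of comparisons share their WTEV libraries. Irf8 and Myb, the pair that fell in dKOEV, did not pass the threshold against WTEV in either insert group.

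**Figure D2:**
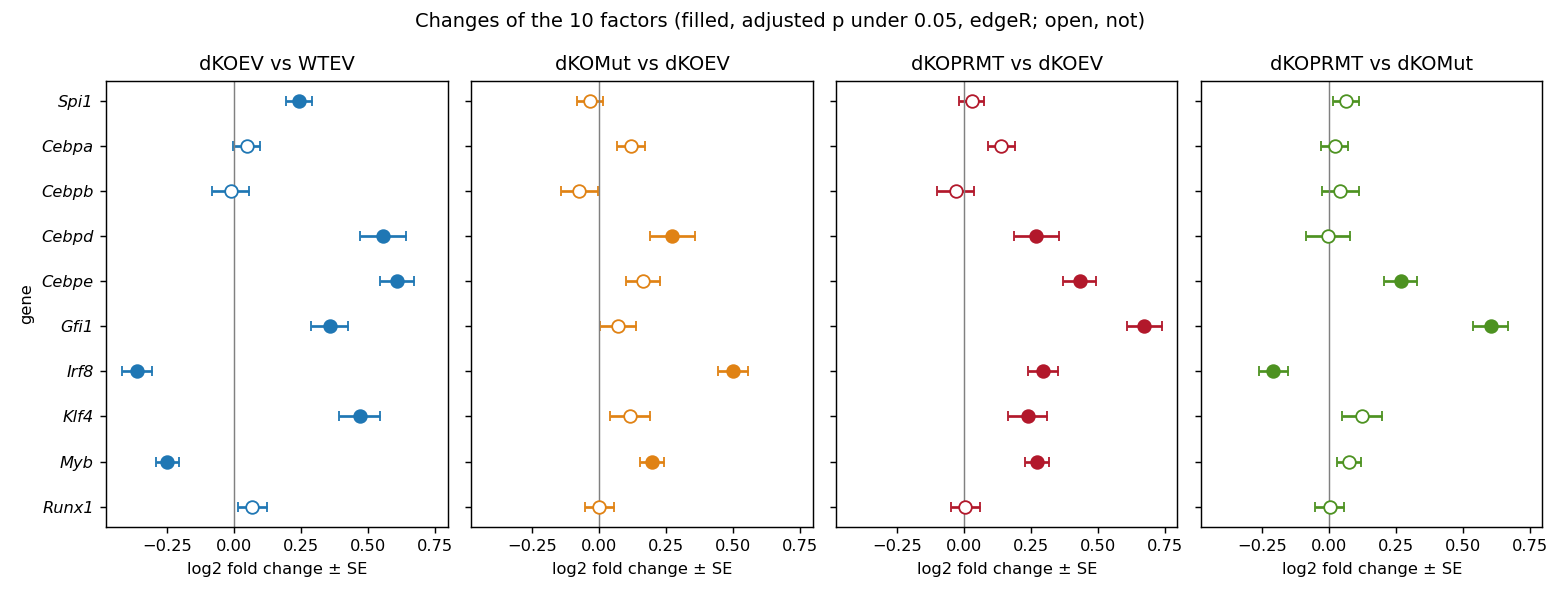
Log2 fold change of each factor (horizontal axes, point with standard error bars) in 4 comparisons; filled points passed an adjusted p of 0.05 and open points did not. Irf8 and Myb lie left of 0 in dKOEV against WTEV and right of it with either insert, and Gfi1 at 0.60 stands apart in dKOPRMT against dKOMut.

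Ratios between factors within a library do not depend on library scaling. The ratio of Gfi1 to Irf8 on RPKM was 0.51 and 0.53 in WTEV, 0.84 and 0.88 in dKOEV, 0.64 and 0.63 in dKOMut, and 1.07 and 1.16 in dKOPRMT. No 2 groups overlapped, and how often other ratios separate the groups like this was not computed. For single genes the share free of overlap was 44.1% to 62.6% by comparison. Gfi1 exceeded Irf8 per length in the dKOPRMT libraries alone. The ratio of Cebpe to Cebpa, a late against an early granulocyte factor, was 0.54 and 0.59 in WTEV, 0.87 and 0.82 in dKOEV, 0.91 and 0.83 in dKOMut, and 1.00 and 1.06 in dKOPRMT. Here dKOEV and dKOMut overlapped. The ratio of Cebpa to Spi1 ran from 0.32 to 0.40 over all libraries, with overlap between the dKO groups and between WTEV and dKOMut. That of Cebpb to Cebpa ran from 1.06 to 1.38, with overlap between WTEV and dKOEV and between the insert groups. These ratios were chosen with the levels known and are given as a description, with no test.

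**Figure D3:**
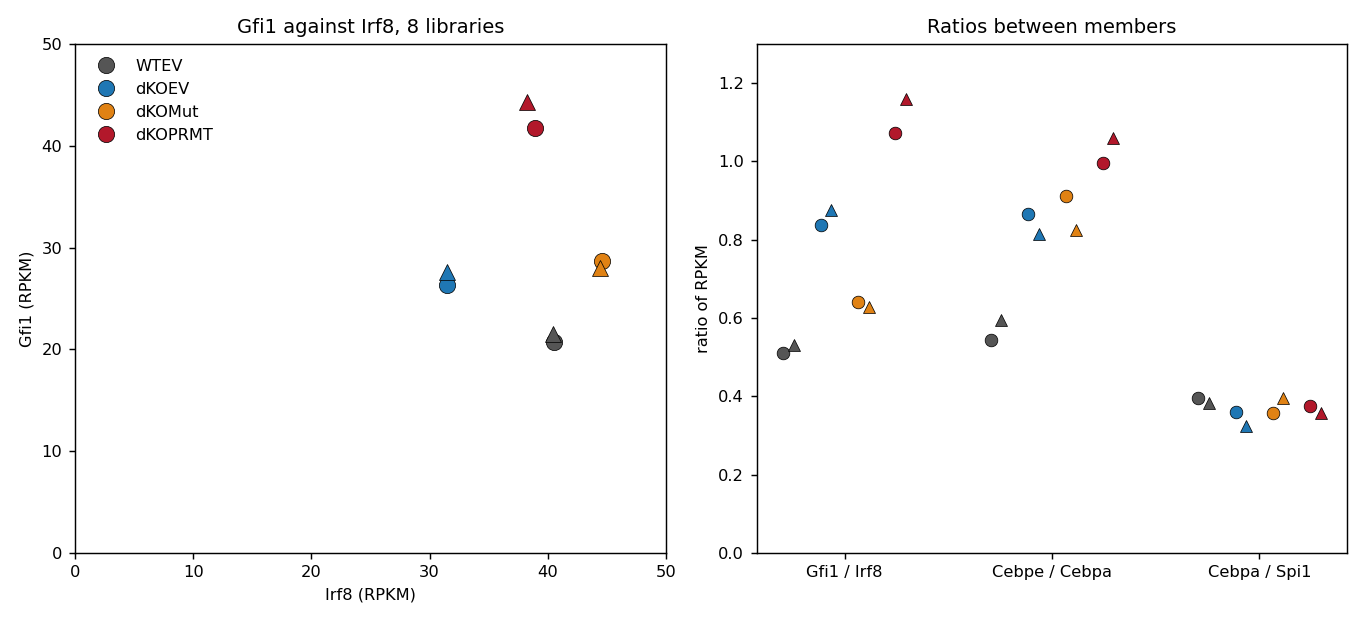
Left, Gfi1 against Irf8 in RPKM, 1 point per library, circles for replicate 1 and triangles for replicate 2. Right, ratios of RPKM between pairs of factors in the same libraries and colours: the Gfi1 to Irf8 ratio is 1.07 and 1.16 in dKOPRMT and 0.51 to 0.88 in the other groups.

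For the lists of related genes below, the shares of all tested genes called are those given with the factors, and the median over all tested genes was within 0.01 of 0 in each comparison. Genes that C/EBP factors are known to switch on in granulocytes were mostly higher in dKO cells. The list holds 22 genes, all tested. In dKOEV against WTEV 18 rose and 1 fell, at a median of 0.74, with Chil3 (1.23 ± 0.03), Cd177 (1.36 ± 0.04), the iron-binding Ltf (0.98 ± 0.03) and the antimicrobial Camp (1.07 ± 0.04) having the smallest p. In dKOMut against dKOEV 16 rose and 0 fell, at a median of 0.32, with Ltf at 0.60 ± 0.03 and Ngp at 0.47 ± 0.03. In dKOPRMT against dKOEV 13 rose and 3 fell, at a median of 0.20. Of the primary granule genes, Prtn3 (0.75 ± 0.03), Mpo (0.56 ± 0.03) and Elane (0.69 ± 0.03) were higher, and the gelatinase Mmp9 fell by 1.43 ± 0.07 on the log2 scale. Chosen after their values were seen, the secondary granule genes Camp (0.46 ± 0.04), Ngp (0.29 ± 0.03) and Ltf (0.21 ± 0.03) also rose. Lcn2 (-0.07 ± 0.04) missed the threshold. Besides Mmp9, Cxcr2 (-1.45 ± 0.09) and Mmp8 (-0.185 ± 0.04) fell. Between dKOPRMT and dKOMut 7 were higher and 9 lower, and the late genes Mmp9 (-1.47 ± 0.07), Cxcr2 (-1.22 ± 0.09), Mmp8 (-0.50 ± 0.04) and Ltf (-0.40 ± 0.03) were among the lower ones. The list median was -0.11. Chosen after their values were seen, the primary granule genes Prtn3 (0.35 ± 0.03), Elane (0.31 ± 0.03) and Mpo (0.20 ± 0.03) were among the higher ones, and the late genes Camp (-0.06 ± 0.04) and Padi4 (-0.095 ± 0.06) did not pass the threshold.

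Known PU.1 and IRF8 targets of monocytes and dendritic cells went both ways. Of 26 listed genes 25 were tested. In dKOEV against WTEV 7 rose and 7 fell, at a median of -0.01, with the antigen-presentation regulator Ciita (0.79 ± 0.11) and the hydrolase Naaa (0.77 ± 0.07) higher and the Fc receptor Fcgr1 (-0.87 ± 0.06) and the endotoxin co-receptor Cd14 (-1.10 ± 0.12) lower. In dKOMut against dKOEV 4 rose and 10 fell, at a median of -0.09, with Fcgr1 (-0.92 ± 0.07) and Cd68 (-0.65 ± 0.05) lower and the transglutaminase F13a1 (0.79 ± 0.04) higher. The number that rose was 1 without dKOMut replicate 1, and the number that fell was 6 without dKOMut replicate 2. In dKOPRMT against dKOEV 6 rose and 8 fell, at a median of -0.05, with Ctss (-0.52 ± 0.04) lower and F13a1 (0.62 ± 0.04) higher. Between dKOPRMT and dKOMut 6 were higher and 3 lower, at a median of 0.03. Ciita was higher by 0.71 ± 0.10 there and Mpeg1 lower by -0.21 ± 0.03. Without dKOMut replicate 1, dKOMut replicate 2 or dKOPRMT replicate 1 the higher genes numbered 3, 3 and 2, and without dKOMut replicate 1 the lower ones numbered 1.

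Among genes that GFI1 is known to repress, more fell than rose with either insert. Gfi1 itself differed from dKOEV by 0.07 ± 0.07 in dKOMut, which missed the threshold, and rose by 0.67 ± 0.07 in dKOPRMT. What lowered these genes was not tested. Of the 16 listed, 15 were tested, and Egr1, Egr2, Nab2, Id1 and Id2 also stand in the list of partner factors and Csf1r in that of PU.1 targets. In dKOEV against WTEV 3 rose and 2 fell, at a median of 0.06, with Egr1 (0.87 ± 0.12) higher and Hoxa9, a target of the knockout, lower (-1.93 ± 0.32). Without WTEV replicate 1, 1 fell. In dKOMut against dKOEV 10 fell and 1 rose, at a median of -0.31, including the macrophage factor receptor Csf1r (-0.41 ± 0.04), its ligand Csf1 (-0.81 ± 0.14) and Egr2 (-1.52 ± 0.21). The number that fell was 5 and 6 without dKOMut replicate 1 and 2, and the number that rose was 0 without dKOEV replicate 1 or dKOMut replicate 1 and 2 without dKOEV replicate 2. In dKOPRMT against dKOEV 6 fell and 1 rose, at a median of -0.16, including Csf1r (-0.27 ± 0.04), Csf1 (-0.85 ± 0.14) and Meis1 (-0.75 ± 0.12). The number that rose was 0 without dKOEV replicate 1 or either dKOPRMT library and 2 without dKOEV replicate 2. Between dKOPRMT and dKOMut 3 were higher and 1 lower at a median of 0.01, with Egr1 (0.55 ± 0.12), Egr2 (0.75 ± 0.22) and Csf1r (0.145 ± 0.04) higher. In that comparison 0 were called without dKOMut replicate 2 or dKOPRMT replicate 1, and 1 in each direction without dKOMut replicate 1 or dKOPRMT replicate 2. Csf1r missed the threshold without any 1 of the 4 libraries compared (adjusted p = 0.119 to 0.421), and so did Egr2 (0.0945 to 0.336), which also missed it without WTEV replicate 2 (0.0561). Egr1 missed it without dKOMut replicate 2 (0.0714) or dKOPRMT replicate 1 (0.237).

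Of the 15 progenitor genes known as MYB and RUNX1 targets, all tested, 3 rose and 5 fell in dKOEV against WTEV, at a median of -0.07. The cytokine receptor Flt3 (-1.02 ± 0.14), Cd34 (-0.37 ± 0.06) and Cd48 (-0.45 ± 0.07) fell and the ETS factor Ets1 (0.50 ± 0.08) rose. In dKOMut against dKOEV 1 rose, Cd34 (0.23 ± 0.06), and 3 fell: Pf4 (-0.90 ± 0.07), Zfpm1 (-0.75 ± 0.07) and Itga2b (-0.45 ± 0.06), at a list median of 0.08. Cd34 lost its call without dKOMut replicate 1 (adjusted p = 0.0514), and 2 rose without dKOEV replicate 1. In dKOPRMT against dKOEV 6 fell and 2 rose, at a median of -0.01, with Zfpm1 at -1.03 ± 0.08 and Itga2b at -0.85 ± 0.06. The number that rose was 1 without either dKOEV library or dKOPRMT replicate 1, and 0 without dKOPRMT replicate 2. Cd34 (-0.45 ± 0.06), Itga2b (-0.40 ± 0.06) and Zfpm1 (-0.28 ± 0.08) were lower in dKOPRMT than in dKOMut, and 0 of the list were higher. Zfpm1 lost that call without dKOMut replicate 2 or either dKOPRMT library (adjusted p = 0.32, 0.231 and 0.231). Pf4, Itga2b and Zfpm1 are also megakaryocyte genes.

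Partner and opposing transcription factors fell more often than they rose with either insert. Of the 49 listed, 48 were tested. In dKOEV against WTEV 10 rose and 5 fell, at a median of 0.06, with Fos (0.66 ± 0.08), the retinoic acid receptor Rara (0.54 ± 0.07) and the lymphoid and dendritic factor Irf4 (1.23 ± 0.17) higher and the macrophage factor Maf (-0.73 ± 0.09) lower. Without WTEV replicate 2, 6 rose, and without WTEV replicate 1, 3 fell. In dKOMut against dKOEV 16 fell and 2 rose, at a median of -0.15, with Maf (-1.33 ± 0.10), Jund (-0.74 ± 0.06) and Jun (-0.71 ± 0.08) lower. Without dKOEV replicate 2 or dKOMut replicate 2, 1 rose. In dKOPRMT against dKOEV 16 fell and 4 rose, at a median of -0.15, with Maf (-1.12 ± 0.10), Gata2 (-0.71 ± 0.06), Jund (-0.63 ± 0.06) and Klf6 (-0.43 ± 0.05) lower. The number that fell was 10 without dKOPRMT replicate 2, and the number that rose was 2, 1 and 2 without dKOEV replicate 2, dKOPRMT replicate 1 and dKOPRMT replicate 2. Between dKOPRMT and dKOMut, Gata2 was lower (-0.58 ± 0.06) and Id3 (0.59 ± 0.11) higher, in a list with 5 higher and 2 lower at a median of -0.03. The 5 became 3, 1, 2 and 2 without dKOMut replicate 1, dKOMut replicate 2, dKOPRMT replicate 1 and dKOPRMT replicate 2. The 2 became 1 without dKOMut replicate 2 or either dKOPRMT library, and 4 without either dKOEV library.

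**Figure D4:**
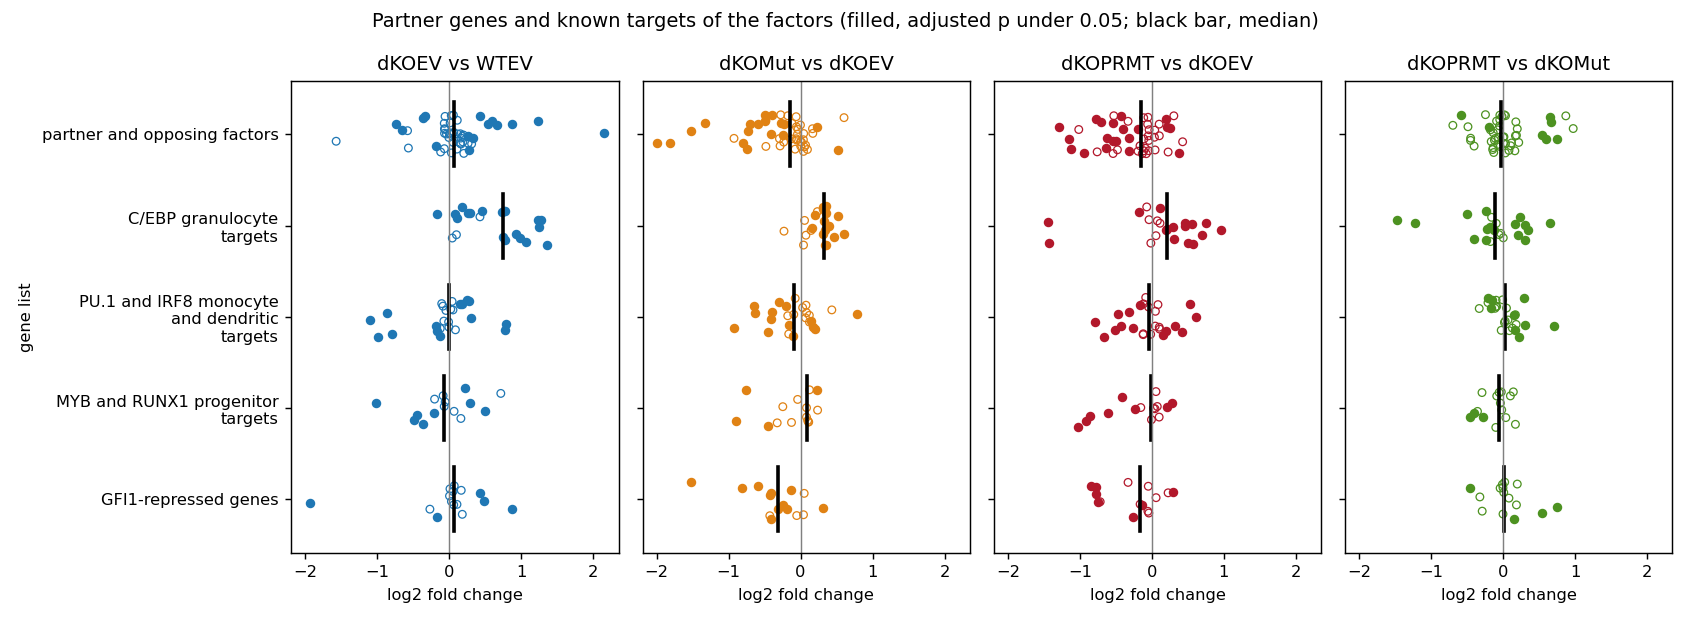
Log2 fold changes (horizontal axes) of the tested genes of 5 lists around the factors, 1 point per gene, filled where the adjusted p was under 0.05, with a black bar at each list's median. The C/EBP targets lie mostly right of 0 in dKOEV against WTEV (median 0.74), and the GFI1-repressed genes lie mostly left of 0 in dKOMut against dKOEV (median -0.31).

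Markers of mature cell types changed alongside the factors, and their part in the results above was not tested. None of the 12 HSPC markers was at 0 in both libraries of a group, with Kit at 138 to 171 CPM and Ly6a at 154 to 262 CPM. Their summed level was 982 to 1005 CPM in WTEV, 866 to 892 in dKOEV, 777 to 799 in dKOMut and 688 to 708 in dKOPRMT. The 11 neutrophil markers in the table summed to 7950 to 8129 CPM in WTEV, 13990 to 14820 in dKOEV, 18770 to 18890 in dKOMut and 15960 to 16280 in dKOPRMT. Their sum was thus highest in dKOMut, while Cebpe and Gfi1 were highest in dKOPRMT. Of the single neutrophil markers 9 were called higher and 0 lower in dKOMut against dKOEV. In dKOPRMT against dKOEV 6 were higher and 3 lower. Ltf, Camp, Ngp, Lcn2, Mmp8, Mmp9, Cxcr2, Cd177, S100a8 and S100a9 also stand in the list of C/EBP targets. The HSPC and monocyte markers share genes with the target lists as well. The 11 monocyte and macrophage markers summed to 8205 to 8219 CPM in WTEV, 6640 to 6719 in dKOEV, 4752 to 4829 in dKOMut and 4862 to 4886 in dKOPRMT. This sum was lowest in dKOMut, where Irf8 was highest (153 CPM). On RPKM the Gfi1 to Irf8 ratio was lower in dKOMut (0.64 and 0.63) than in dKOEV (0.84 and 0.88). The neutrophil sum was higher in dKOMut than in dKOEV, and its relation to this ratio was not tested. Of the 10 dendritic cell markers the sum was 1092 to 1108 CPM in WTEV, 1605 to 1740 in dKOEV, 1501 to 1506 in dKOMut and 1878 to 1922 in dKOPRMT. A sum follows its most abundant genes, and the single dendritic markers went both ways. In dKOEV against WTEV 3 were called higher and 2 lower, with Flt3 at -1.02 ± 0.14. Against dKOEV, 0 were higher and 3 lower in dKOMut, and 3 higher and 0 lower in dKOPRMT. The shares of all tested genes called are those given with the factors. The 8 mast cell and basophil markers summed to 1549 to 1594 CPM in WTEV, 887 to 894 in dKOEV, 1006 to 1030 in dKOMut and 577 to 585 in dKOPRMT. The 7 megakaryocyte markers summed to 294 to 310 CPM in WTEV, 345 to 359 in dKOEV, 223 to 225 in dKOMut and 192 to 198 in dKOPRMT. The 6 eosinophil markers summed to 242 to 258 CPM in WTEV and 276 to 287 in dKOEV. In dKOMut and dKOPRMT the eosinophil sums were 170 to 201 and 254.5 to 263 CPM. Erythroid markers summed to 61.5 to 63.8 CPM in WTEV and 31.8 to 33.7 in dKOEV. In dKOMut and dKOPRMT the erythroid sums were 23.55 to 26.15 and 15.4 to 18.4 CPM. The 4 globin genes listed had no count in any library. The 12 lymphoid markers summed to 236.5 to 239 CPM in WTEV and 108 to 115 in dKOEV. In dKOMut and dKOPRMT the lymphoid sums were 119 to 123 and 130 to 132 CPM. Cd3e had no count in any library, and Cd3g, Cd8a, Pax5, Ebf1 and Ms4a1 had none in dKOEV. Of the 12 lymphoid markers 5 were tested, with 0 called higher and 2 lower in dKOEV against WTEV.

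The genes whose log2 levels over the 8 libraries were most like those of a factor were listed as a description, among 9945 genes with a mean level of at least 5 CPM. For Gfi1 they were the interferon gamma receptor subunit Ifngr1 (Pearson correlation 0.99), Tmx4 (0.99) and Gpr35 (0.99). Ifngr1 was at 214 and 212 CPM in WTEV, 242 and 251 in dKOEV, 256 and 258 in dKOMut, and 312 and 310 in dKOPRMT. For Cebpe they were Sulf2 (0.99), the NADPH oxidase subunit Ncf1 (0.99) and the short-chain fatty acid receptor Ffar2 (0.99). For Irf8 they were Hirip3 (0.99), the sialophorin gene Spn (0.98) and the co-chaperone Fkbp4 (0.975), and Spn was lowest in dKOEV (537 and 536 CPM) and highest in dKOMut (605 and 604). The leading genes for the other factors were Stxbp5 for Spi1 (0.99), Fbrs for Cebpa (0.97), Dolpp1 for Cebpb (0.95), Ldhb for Cebpd (0.99), Gpr160 for Klf4 (0.99), C330027C09Rik for Myb (0.985) and Trmt1l for Runx1 (0.97). Among the factors themselves, Cebpe correlated with Klf4 at 0.98, with Cebpd at 0.94 and with Gfi1 at 0.91, and Irf8 correlated best with Myb, at 0.76. These libraries share 4 group means, so such values describe group patterns and not single-cell relations.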

How the data were processed

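RNA was sequenced from 8 libraries in 4 groups of 2. The submitters' processing notes name STAR 2.7.6a, Trim Galore 0.6.6, featureCounts and GRCm38 (mm10). The annotation and strand setting were not given in the sources used here. Unnormalized read counts for each gene, beside its length, were deposited, and no replicates were pooled. Groups came from the sample titles.

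The test was edgeR's robust quasi-likelihood test (edgeR 4.0.16, R 4.3.3) on TMM-scaled counts. filterByExpr kept 12744 of 24421 genes. One model with a term for group covered the 8 libraries (4 residual degrees of freedom, median prior 30.4, common biological coefficient of variation 0.0637). Benjamini-Hochberg adjustment ran over all tested genes, with a threshold of 0.05. A standard error is the log2 fold change divided by the square root of F. The likeness ranking used log2(CPM + 1). Totals of 15531344 to 22329749 counts set the precision. The procedure was tested on simulated data, in which genes drawn at random from all levels were changed in dKOPRMT. In dKOPRMT against dKOEV it recovered 38% of genes changed 1.25-fold and 66% of those changed 1.5-fold. At 2-fold and 4-fold it recovered 81.6% and 94%. Of 12498 genes tested there, 7 unchanged ones were called. The factors lay at percentiles 74 to 96.6 of mean level among tested genes, so these shares are not those for the factors. A difference that missed the threshold is not shown to be absent. Replicates differed by more than sampling noise (chi-square per degree of freedom 3.65 to 6.43), so none was a repeated deposit.

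The 10 factors, 5 gene lists and marker lists were chosen with earlier results of these data known. The text names the factors, check genes, up to 4 called genes of a list with the smallest p, and up to 3 genes most like a factor. Some genes that this rule names are not reported here. Alternatives were DESeq2 size factors, no count filter, DESeq2 1.42.0, the compared groups alone, a replicate block and each library left out. Counts of list genes with a library left out were added after the data were seen.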

Additional observations from a re-analysis of the deposited data

How the results depend on the processing

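Of 780 values of the 10 factors in 6 comparisons under 13 alternative settings, 729 kept their direction and their side of the threshold. With DESeq2 size factors, the compared groups alone or a replicate block no factor changed its call. The replicate block gave 1952 called genes for dKOEV against WTEV and 1853 for dKOPRMT against dKOEV, and replicate deviations were uncorrelated between groups (r from -0.032 to -0.002 over genes), so the shared numbers were not taken as pairs. Without a count filter Cebpa passed in dKOPRMT against dKOEV (adjusted p = 0.0266). With DESeq2, Cebpd missed the threshold in dKOMut and dKOPRMT against dKOEV (adjusted p = 0.0646 and 0.058).

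With each library left out in turn, where a lone library is assumed to vary like the other groups, the called genes numbered 1149 to 1996 for dKOEV against WTEV, 1058 to 1945 for dKOPRMT against dKOEV, 1954 to 3394 for dKOPRMT against WTEV and 171 to 550 for dKOPRMT against dKOMut. Counts moved by over 1.5 times without either WTEV library (dKOEV against WTEV), either dKOPRMT library (dKOPRMT against dKOEV), dKOPRMT replicate 1 (dKOPRMT against WTEV) and any 1 of the 4 libraries compared (dKOPRMT against dKOMut). The factors called in the last numbered 1 to 3. The sign turned only for differences that were not called. For Cebpb the ranges were -0.12 to 0.11 (dKOEV against WTEV), -0.20 to 0.038 (dKOMut against WTEV), -0.18 to 0.038 (dKOMut against dKOEV), -0.15 to 0.077 (dKOPRMT against WTEV), -0.084 to 0.022 (dKOPRMT against dKOEV) and -0.067 to 0.15 (dKOPRMT against dKOMut). For Runx1 they were -0.046 to 0.057 for each insert against dKOEV and -0.04 to 0.043 between inserts. Cebpa ranged from -0.0066 to 0.10 (dKOEV against WTEV) and -0.064 to 0.10 (between inserts), and Cebpd from -0.083 to 0.075 (between inserts). Spi1 ranged from -0.13 to 0.078 (dKOMut against dKOEV) and -0.066 to 0.14 (dKOPRMT against dKOEV). The causes were not tested.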
